A study of Mus musculus with 8 samples.

Results

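The nuclear genes of the mitochondrial respiratory chain were followed by complex in mouse embryos before implantation, in diapause and after implantation. Members were the genes whose symbols begin with Nduf and a subunit letter and number, with Uqcr, with Cox4 to Cox8 or with Atp5, together with Cyc1 and Cycs. Symbols with a pseudogene suffix and the Ndufaf and Uqcc assembly factors were left out. No matching symbol was repeated, so the rule used no measured value. It selected 83 of the 38924 genes in the expression matrix: 35 of complex I, 9 of complex III, cytochrome c, 20 of complex IV and 18 of complex V (ATP synthase). The 18 include Atp5l2, a pseudogene in current annotation, and Atp5s and Atp5sl, which are not subunits under their current names. They matched by symbol and stay in the counts, medians and sums of complex V.

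The 8 libraries came from embryos of C57BL/6 females. Diapaused inner cell mass (dICM, 3 libraries) came from blastocysts in which tamoxifen and 0.5 mg of Depo Provera, a progestin, were given to the mothers on day 3.5 to hold the embryos in diapause, with collection 5 days later. Epiblast (Epi, 2 libraries) was taken from post-implantation embryos at day 6.5. Inner cell mass (ICM, 3 libraries) came from untreated day 3.5 blastocysts and served as the baseline for both. Trophectoderm, the outer layer of the blastocyst, had been lysed with antibody and complement to isolate inner cell mass. Each library pooled about 50 embryos and its RNA was amplified before sequencing, so tests over libraries measure only the spread between pools. Lower levels of a transcript in such bulk samples can come from fewer cells of a type or from a smaller share of that transcript in the RNA of each cell. These cannot be told apart.

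The respiratory chain passes electrons from NADH and succinate to oxygen. Complex I oxidises NADH, complex II oxidises succinate, complex III passes electrons to the soluble carrier cytochrome c, and complex IV (cytochrome c oxidase) reduces oxygen. Complexes I, III and IV pump protons across the inner mitochondrial membrane, and complex V uses the return of those protons to make ATP. Apart from complex II, each complex is built from subunits of both genomes: mitochondrial DNA encodes catalytic or proton-conducting subunits, and nuclear genes encode the rest. Several subunits of complexes IV and V have more than 1 nuclear gene, with isoforms used in muscle, testis or other tissues. Early preimplantation embryos rely on mitochondrial respiration, the post-implantation epiblast is known for high glycolysis, and diapaused blastocysts are known for low metabolic activity.

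Levels are the deposited values, called adjusted TPM by the authors' column names, a scale that by its name accounts for transcript length. Means are given ± SD over n = 3 libraries for dICM, n = 2 for Epi and n = 3 for ICM, and log2 fold changes ± SE. Of the 83 members, 77 reached 1 adjusted TPM in at least 2 libraries and were tested. The 6 that did not were all isoforms of complex IV with tissue-restricted use: Cox4i2, Cox6a2, Cox7b2, Cox8b, Cox8c and Ndufa4l2. Their highest values in any library ran between 0.00844 for Cox6a2 and 0.396 for Cox8c. Every ubiquitous partner of these genes was detected, so the embryos at all stages carried Cox4i1, Cox6a1, Cox7b, Cox8a and Ndufa4 transcripts. Among complex I genes, mean levels over all libraries ran between 2.75 for Ndufa11, a membrane-arm subunit, and 199.6 for Ndufa2, an accessory subunit of the matrix arm. In complex III the lowest was Uqcr11 (9.12) and the highest Uqcrh (75.04), the hinge protein that helps cytochrome c dock. In complex IV the lowest tested gene was Cox6b2 (11.9) and the highest Cox7c (729). Among the genes placed in complex V by symbol the lowest was Atp5s (0.719), which is not a listed subunit. The highest was Atp5b (1244), which encodes the catalytic beta subunit. The median coefficient of variation between libraries of a group was 22.9% in dICM, 14.98% in Epi and 21.7% in ICM over the tested members.

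**Figure D1:**
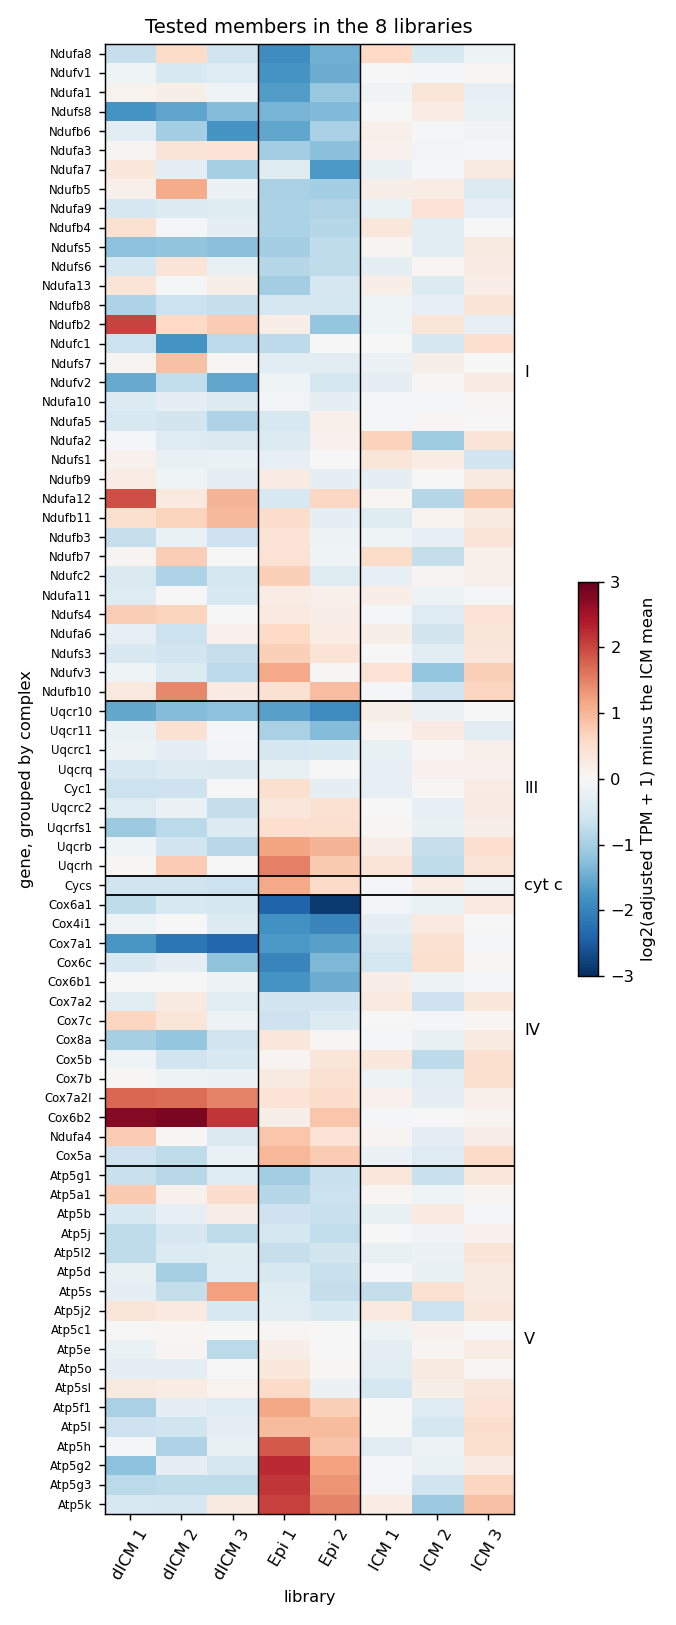
Tested members (rows, grouped by complex) in each library (columns, dICM, Epi and ICM from left to right), coloured by log2(adjusted TPM + 1) minus the mean of the 3 ICM libraries, with red above and blue below that mean and colours limited to -3 and 3. In the Epi columns the 9 genes of complex I and the 5 of complex IV that fell are blue, and the 5 of complex V that rose are red.

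Over the members, log2 levels correlated at 0.946 to 0.980 between libraries of a group and at 0.777 to 0.926 between groups, which describes the 8 libraries and shares their gene set. ICM markers were present in ICM and dICM, and Fgf5, Otx2 and the other post-implantation markers summed to 569 and 284 adjusted TPM in Epi. Primitive endoderm markers (8 genes) summed to 210 to 343 in dICM, 14.6 and 26.8 in Epi, and 67.8 to 83.8 in ICM. Visceral endoderm markers (6 genes) summed to 7.13 to 11.7 in dICM, 20.1 and 63.6 in Epi, and 1.82 to 3.08 in ICM. Of the 4 tested, 3 were called higher in Epi against ICM, beside 16.7% of all genes. The 8 trophectoderm markers summed to 42.9, 48.1 and 177 in dICM, 58.1 and 65.2 in Epi, and 33.2 to 54.4 in ICM, with dICM replicate 3 high through Krt18 and Krt8, and Cdx2 between 0.0995 and 2.16 in all libraries. Of the 5 genes in the blood list, 4 were in the matrix and 2, Cd68 and Laptm5, were tested. The rest of the 4 did not reach 1 adjusted TPM in at least 2 libraries. Both tested genes were called higher in dICM than in ICM, and Laptm5 had 53.2, 20.8 and 21.5 in dICM against 1.03, 1.12 and 0.743 in ICM. The part of these other cell types in the member levels was not tested. The primitive endoderm sum and Laptm5 were above ICM in all 3 dICM libraries. Of the 8 primitive endoderm markers, 5 were called higher and 1 lower in dICM against ICM. Over all genes 7.52% were called higher and 5.81% lower. Without dICM replicate 3, the library with the high trophectoderm sum, 2 members were higher and 6 lower in dICM against ICM, with Ndufv2 no longer called (adjusted p = 0.058) and Uqcrfs1 called (0.042).

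In diapause, the respiratory chain genes that passed the test were single genes of complexes I, III and IV, at a share near that of all genes. Against ICM, 2 of 77 members were higher in dICM and 6 were lower (10.4%; limma on log2(value + 1), Benjamini-Hochberg adjustment over all 17698 tested genes), beside 13.3% of all genes, 7.52% higher and 5.81% lower. The median log2 fold change of the members was -0.30, beside 0.00 for all genes, with 54 members below 0 and 23 above. At an unadjusted p under 0.05 there were 20 members. The libraries of the 2 groups did not overlap for 29 members, 5 higher and 24 lower in dICM, beside 30.7% of all genes, 16.4% higher and 14.4% lower. The 2 members that rose, Cox6b2 and Cox7a2l, and the one that fell most, Cox7a1, all belong to complex IV or its supercomplexes.

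**Figure D2:**
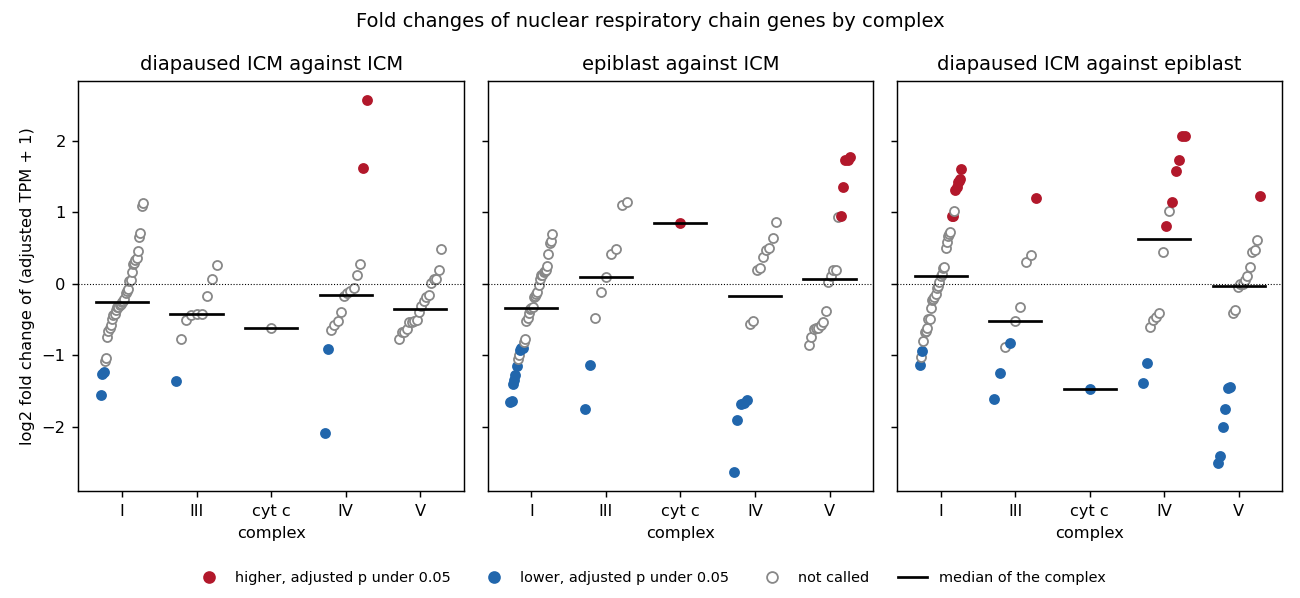
Log2 fold change of (adjusted TPM + 1) for each tested member by complex, in dICM against ICM, Epi against ICM and dICM against Epi, with red and blue points for members higher and lower at an adjusted p under 0.05, open points for the rest and bars for medians. In dICM against ICM the median of complex V is -0.35 with no gene called, and complex IV spans -2.09 to 2.58.

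Complex IV had the widest range of fold changes in diapause: 2 of its 14 tested genes rose and 2 fell, with a median of -0.15. Cox6b2 (ENSMUSG00000051811) encodes the testis isoform of a small subunit on the intermembrane side. It had 27.8, 29.2 and 17.7 adjusted TPM in dICM, 3.77 and 6.61 in Epi, and 3.09, 3.19 and 3.48 in ICM. All dICM libraries stood above every other library, and the log2 fold change over ICM was 2.58 ± 0.26 (SE, adjusted p = 0.00049). Cox7a2l (ENSMUSG00000024248) encodes a relative of the Cox7a subunits that joins complexes III and IV in a supercomplex, and C57BL/6 mice carry a shortened form of the protein. It had 313, 306 and 265 in dICM, 127 and 138 in Epi, and 104, 77.3 and 106 in ICM, again with no overlap, and rose by 1.62 ± 0.21 over ICM (adjusted p = 0.0015).

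Cox7a1 (ENSMUSG00000074218) encodes the heart and skeletal muscle isoform of subunit 7a, and its levels ran against those of Cox7a2l. Cox7a1 had 6.18, 4.40 and 3.71 in dICM, 6.28 and 6.76 in Epi, and 17.1, 31.9 and 22.6 in ICM. Every dICM and Epi library lay below the lowest ICM library, and the log2 fold change in dICM was -2.09 ± 0.27 (adjusted p = 0.0015). Cox8a (ENSMUSG00000035885), the ubiquitous isoform of the small subunit 8, had 18.3, 16.1 and 24.5 in dICM, 48.0 and 38.2 in Epi, and 36.5, 31.9 and 45.2 in ICM. The groups did not overlap and the log2 fold change in dICM was -0.92 ± 0.24 (adjusted p = 0.037). That call was lost without ICM replicate 1 (adjusted p = 0.096) or 3 (0.11), dICM replicate 1 (0.0945) or 2 (0.11), or Epi replicate 1 (0.0556) or 2 (0.0559). Other abundant genes of the complex were not called in diapause: Cox4i1, the ubiquitous isoform of the largest nuclear subunit, averaged 600 ± 86.2 in dICM and 681 ± 137 in ICM, and Cox7c averaged 893 ± 238 in dICM and 718 ± 26.9 in ICM (SD, n = 3 each).

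In complex I, 0 of 35 genes rose and 3 fell in dICM, with a median of -0.26. Among the core subunits, some of which carry the redox centres, Ndufs8 and Ndufv2 fell. Ndufs8 (ENSMUSG00000059734), an iron-sulfur protein near the quinone site, had 2.67, 3.26 and 4.21 in dICM, 3.90 and 4.14 in Epi, and 11.7, 13.8 and 10.1 in ICM. Its highest dICM library was below its lowest ICM library by more than the range within either group, and the log2 fold change was -1.56 ± 0.21 (adjusted p = 0.0019). Ndufv2 (ENSMUSG00000024099), an iron-sulfur protein of the NADH-oxidising tip, had 4.02, 7.55 and 3.87 in dICM, 12.1 and 8.92 in Epi, and 10.8, 13.6 and 15.8 in ICM. The log2 fold change was -1.26 ± 0.28 (adjusted p = 0.018), and the call was lost without ICM replicate 3 (0.062), dICM replicate 1 (0.057) or dICM replicate 3 (0.058). The gene overlaps Ankrd12 in the mouse annotation, and the sources used here do not say how the counting used strand.

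Other core subunits of complex I did not pass the test in diapause. Ndufv1, the flavin-binding subunit where NADH is oxidised, averaged 55.3 ± 6.92 in dICM and 69.1 ± 2.74 in ICM. Ndufs1 averaged 5.77 ± 0.934 in dICM and 6.49 ± 2.33 in ICM. Ndufs3 averaged 16.3 ± 1.35 in dICM and 25.3 ± 6.02 in ICM, with no overlap between libraries, while Ndufs7, the iron-sulfur protein next to the quinone, averaged 22.5 ± 8.17 in dICM and 17.1 ± 2.23 in ICM. None of the 9 matrix-arm accessory genes was called, and 1 of 19 membrane-arm accessory genes was. That gene was Ndufs5 (ENSMUSG00000028648), on the intermembrane side, which had 13.1, 13.6 and 12.9 in dICM, 15.4 and 18.7 in Epi, and 34.0, 25.2 and 39.3 in ICM. All dICM libraries stood below all others, and the log2 fold change over ICM was -1.23 ± 0.22 (adjusted p = 0.0078).

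**Figure D3:**
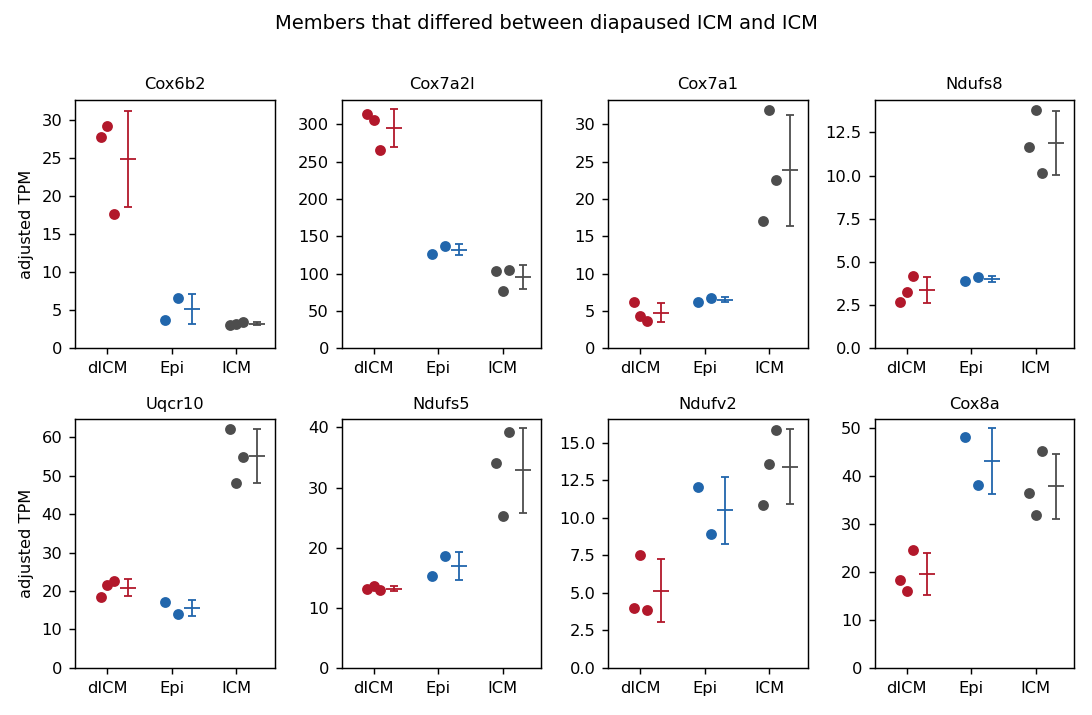
Adjusted TPM on a linear axis from 0 in each library (points) for the 8 members called in dICM against ICM, with group means ± SD beside the points, in the order dICM, Epi and ICM. Cox6b2 and Cox7a2l lie highest in dICM, and Ndufs8, Ndufs5, Uqcr10 and Cox7a1 lie lower in dICM and Epi than in ICM.

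In complex III 1 of 9 genes fell in dICM and none rose, with a median of -0.43. Uqcr10 (ENSMUSG00000059534), a small membrane subunit, had 18.4, 21.5 and 22.7 in dICM, 17.1 and 14.1 in Epi, and 62.2, 48.2 and 54.8 in ICM. The libraries formed a low dICM and Epi range and a separate ICM range, with a log2 fold change of -1.36 ± 0.21 in dICM (adjusted p = 0.0036). The annotation places the predicted gene Gm51883 over Uqcr10. The catalytic subunits were not called: Cyc1, which encodes cytochrome c1, averaged 31.4 ± 8.47 in dICM and 42.1 ± 6.93 in ICM, and Uqcrfs1, the Rieske iron-sulfur protein, averaged 10.7 ± 2.72 in dICM and 18.7 ± 2.81 in ICM. Uqcrfs1 did not overlap between the groups and had an adjusted p of 0.062, which passed under quantile normalization (0.040), under the rescalings (0.036 and 0.040) and without dICM replicate 3 (0.042). Cycs, which encodes the carrier cytochrome c, had 41.0, 41.0 and 39.8 in dICM and 60.3, 73.6 and 56.1 in ICM, also without overlap, at an adjusted p of 0.11.

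In complex V no gene was called in diapause in either direction among 18 tested, with 2 at an unadjusted p under 0.05 and a median of -0.35. Atp5a1, the alpha subunit of the catalytic head, had 846, 539 and 702 in dICM and 506, 448 and 516 in ICM. It was the only gene of the complex whose dICM libraries all lay above the ICM libraries, by a log2 fold change of 0.48 ± 0.22 (adjusted p = 0.20). Atp5b averaged 1284 ± 310 in dICM and 1429 ± 272 in ICM, and Atp5c1, the gamma subunit of the rotor, averaged 71.9 ± 2.22 in dICM and 71.6 ± 7.44 in ICM. Atp5j, a peripheral stalk subunit chosen after its values were seen, had 50.5, 60.5 and 49.7 in dICM and 84.7, 79.2 and 93.8 in ICM, without overlap, at an adjusted p of 0.058 that passed with a pseudocount of 0.1 (0.046), with no filter (0.037) and after rescaling (0.020 and 0.024). Summed over tested genes, complex V made up 0.198% to 0.303% of the values of a library in dICM and 0.232% to 0.375% in ICM, so the groups overlapped. The corresponding shares did not overlap for complex I (0.152% to 0.168% in dICM, 0.189% to 0.203% in ICM), complex III (0.0202% to 0.0257% in dICM, 0.0352% to 0.0414% in ICM) or complex IV (0.281% to 0.291% in dICM, 0.308% to 0.413% in ICM). Summed levels that were not divided by the library total overlapped between dICM and ICM for all 4 complexes, in complex III through dICM replicate 2 (278) and ICM replicate 2 (275). The number of members called lower in dICM depended on the scaling, with 6 for values as deposited, 12 after rescaling without abundant genes and 14 after rescaling libraries to equal sums, beside 2 higher each time.

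Isoform use within complex IV and V families was compared through each gene's share of the summed level of its family. In the Cox7a family, Cox7a2l held 88.8% to 91.7% in dICM, 83.7% and 84.5% in Epi, and 60.8% to 66.8% in ICM. Cox7a1 held 1.27% to 1.81% in dICM, 4.14% and 4.15% in Epi, and 11.0% to 25.1% in ICM. Cox7a2, the ubiquitous isoform, averaged 26.0 ± 6.98 in dICM and 29.2 ± 9.72 in ICM and was not called, so the shares moved with the levels of the other two genes. In the Cox6b pair, the ubiquitous Cox6b1 held most of the level in every library. Cox6b2 held 4.23% to 6.15% in dICM, 2.84% and 3.97% in Epi, and 0.597% to 0.803% in ICM. The epiblast share came with a level of Cox6b1 of 144 ± 21.6 in Epi (n = 2) against 449 ± 58.5 in ICM (n = 3), while Cox6b2 itself was not called in Epi against ICM (0.50 ± 0.29, adjusted p = 0.23).

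**Figure D4:**
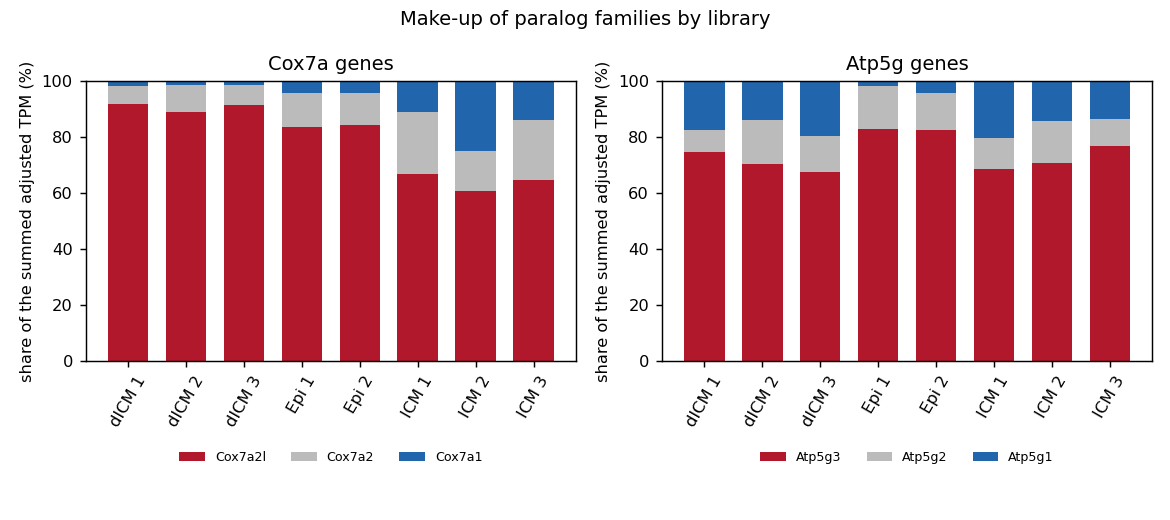
Stacked shares of each gene in the summed adjusted TPM of the Cox7a and Atp5g families, in percent, with a bar for each library of dICM, Epi and ICM. Cox7a2l holds 88.8% to 91.7% of the Cox7a family in dICM and 60.8% to 66.8% in ICM, and Atp5g1 holds 1.83% and 4.34% of the Atp5g family in Epi.

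The promoters of the isoform genes that differed in diapause are shown because their levels ran in opposite directions. Each window runs 250 bases before to 50 after the start of the gene, from RefSeq on GRCm38.p6, 5′ to 3′ in the sense of the gene. The Cox7a1 window is chr7:30183921-30184220 on the plus strand, the Cox7a2l window is chr17:83514284-83514583 on the minus strand, and the Cox6b2 window is chr7:4753045-4753344 on the minus strand. No capitals appear, since none of these windows holds the NRF1 letters described with the Atp5g genes.
Cox7a1: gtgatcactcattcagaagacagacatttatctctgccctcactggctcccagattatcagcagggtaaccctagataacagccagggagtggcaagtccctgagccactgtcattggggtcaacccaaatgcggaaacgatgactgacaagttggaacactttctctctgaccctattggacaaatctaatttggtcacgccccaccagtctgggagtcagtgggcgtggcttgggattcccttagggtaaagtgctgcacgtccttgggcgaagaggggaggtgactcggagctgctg
Cox7a2l: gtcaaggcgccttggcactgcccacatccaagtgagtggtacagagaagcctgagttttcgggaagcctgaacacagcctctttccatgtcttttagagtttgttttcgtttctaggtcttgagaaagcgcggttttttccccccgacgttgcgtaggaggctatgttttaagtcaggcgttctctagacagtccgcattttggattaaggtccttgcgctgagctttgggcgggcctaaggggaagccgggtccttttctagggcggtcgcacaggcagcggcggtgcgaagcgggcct
Cox6b2: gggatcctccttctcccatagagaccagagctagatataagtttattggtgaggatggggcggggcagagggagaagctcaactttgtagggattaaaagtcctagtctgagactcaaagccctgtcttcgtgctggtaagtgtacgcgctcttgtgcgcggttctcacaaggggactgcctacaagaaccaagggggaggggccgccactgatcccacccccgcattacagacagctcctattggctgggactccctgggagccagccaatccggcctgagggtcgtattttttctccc

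After implantation, the members of complexes I, III and IV that passed the test fell, and those of complex V rose. Against ICM, 6 of 77 members were higher in Epi and 16 lower (28.6%), beside 30.1% of all genes, 16.7% higher and 13.3% lower. The median log2 fold change was -0.17, beside 0.14 over all genes. By complex, 0 rose and 9 fell in complex I (median -0.33), 0 rose and 2 fell in complex III (0.10), 0 rose and 5 fell in complex IV (-0.17), and 5 rose and 0 fell in complex V (0.06), with Cycs the sixth that rose. Libraries of the groups did not overlap for 16 members that were higher in Epi and 32 that were lower, beside 59% of all genes, 33.9% higher and 25% lower. The number that rose depended on Epi replicate 1: without it 0 rose and 8 fell, and without Epi replicate 2, 4 rose and 9 fell. Without ICM replicate 1, 2 rose and 12 fell, and scaling moved the split to 9 higher and 15 lower (quantile normalization), 4 and 22 (without abundant genes) and 3 and 23 (equal sums).

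In complex IV, 5 of the 14 tested genes fell in Epi, among them the abundant Cox6a1, Cox4i1 and Cox6b1. Cox6a1 (ENSMUSG00000041697), the ubiquitous isoform of subunit 6a, had 69.6 and 50.0 in Epi and 350, 322 and 459 in ICM. Its Epi libraries lay far below the rest, with a log2 fold change of -2.64 ± 0.26 (adjusted p = 0.00019). Cox4i1 had 189 and 169 in Epi and 546, 821 and 677 in ICM (-1.91 ± 0.25, adjusted p = 0.00090). Cox6b1 had 129 and 160 in Epi and 515, 403 and 430 in ICM (-1.63 ± 0.22, adjusted p = 0.0011). For both genes each Epi library was under every ICM and dICM library. Cox7a1 (-1.68 ± 0.30, adjusted p = 0.0041) and Cox6c, a small transmembrane subunit (-1.66 ± 0.39, adjusted p = 0.013, lost without Epi replicate 1 at 0.12), completed the 5. The calls of Cox6a1, Cox4i1, Cox6b1 and Cox7a1 passed in each fit without 1 library. Summed over the 14 tested genes, complex IV came to 1692 and 1855 adjusted TPM in Epi and 2978 to 3389 in ICM. Cox7c, the gene of the complex with the highest mean level, was not called, with 463 and 538 in Epi and 721, 689 and 743 in ICM (-0.52 ± 0.26, adjusted p = 0.17). Other genes had positive estimates that did not pass in the main fit. Cox5a, a subunit on the matrix side, averaged 31.8 ± 3.76 in Epi and 17.6 ± 6.82 in ICM (adjusted p = 0.071). It passed without ICM replicate 3 (0.023), under quantile normalization (0.028) and with the replicate number as a term (0.018). Cox5b averaged 387 ± 54.4 in Epi and 354 ± 143 in ICM.

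**Figure D5:**
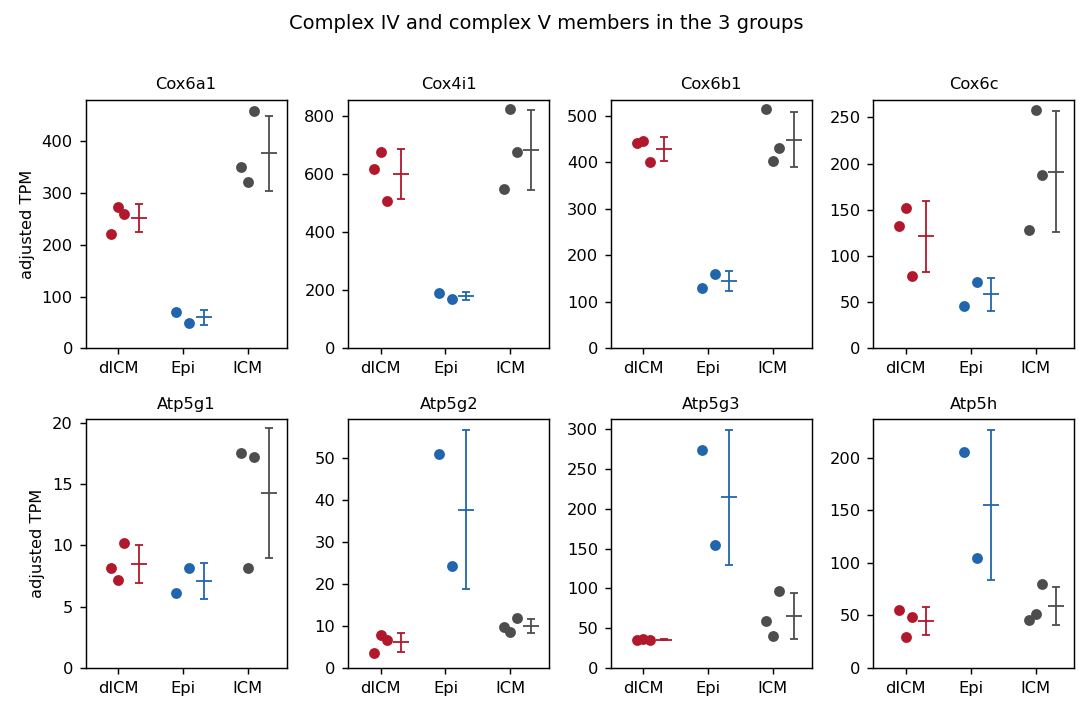
Adjusted TPM on a linear axis from 0 in each library (points), with group means ± SD beside the points, for 4 complex IV genes that were lower in Epi (upper row) and 4 complex V genes (lower row), in the order dICM, Epi and ICM. Cox6a1 stands at 69.6 and 50.0 in Epi against 322 to 459 in ICM, Atp5g3 stands at 274 and 154 in Epi against 40.0 to 96.5 in ICM, and Atp5g1 is not high in Epi.

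In complex I, Ndufv1 fell most firmly in Epi, with 19.1 and 24.1 in Epi and 68.1, 67.0 and 72.2 in ICM. Its log2 fold change was -1.64 ± 0.23 (adjusted p = 0.0011), and the call passed in each fit without 1 library. Ndufs8 fell by 1.35 ± 0.24 on the log2 scale (adjusted p = 0.0037). Ndufa3, a small membrane-arm subunit, had 16.1 and 13.7 in Epi and 37.2, 32.1 and 33.4 in ICM (-1.15 ± 0.23, adjusted p = 0.0063, lost without Epi replicate 2 at 0.060). The other 6 that fell were Ndufa1, Ndufa8, Ndufa9, Ndufb4, Ndufb6 and Ndufs5, and each of these calls was lost without at least 1 Epi library. The core subunit Ndufs3 had a positive estimate, at 37.3 ± 5.74 in Epi and 25.3 ± 6.02 in ICM (adjusted p = 0.13).

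In complex III 2 small subunits fell in Epi and none rose. Uqcr10 fell by 1.75 ± 0.23 (log2, adjusted p = 0.00092) and Uqcr11, another small subunit, had 4.78 and 3.56 in Epi and 10.8, 12.4 and 8.13 in ICM (-1.14 ± 0.28, adjusted p = 0.017, lost without Epi replicate 1 at 0.062 and without Epi replicate 2 at 0.12). Uqcrb, which helps to build the quinone site, had 115 and 104 in Epi and 57.7, 30.9 and 72.1 in ICM, without overlap. Its adjusted p was 0.052 (0.035 without ICM replicate 3 and 0.042 under quantile normalization). Uqcrh had 150 and 90.3 in Epi and 67.9, 30.4 and 67.9 in ICM, at an adjusted p of 0.069. Cycs had 139 and 94.0 in Epi, against 60.3, 73.6 and 56.1 in ICM (0.85 ± 0.25, adjusted p = 0.033). The Cycs call was lost without Epi replicate 1 (0.26), ICM replicate 1 (0.083) or ICM replicate 3 (0.085), with libraries rescaled (0.11 and 0.23) and with the replicate number as a term (0.081).

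The complex V genes that rose in Epi were Atp5g2, Atp5g3, Atp5h, Atp5k and Atp5l, of which the last 3 are named after their values were seen. Atp5g1, Atp5g2 and Atp5g3 encode the same mature c subunit of the proton-driven ring with different import sequences. Atp5g3 had 274 and 154 in Epi, 34.4, 35.9 and 35.4 in dICM, and 59.1, 40.0 and 96.5 in ICM. Both Epi libraries were above all others, with a log2 fold change over ICM of 1.73 ± 0.38 (adjusted p = 0.010). Atp5g2 had 51.1 and 24.4 in Epi, 3.63, 7.93 and 6.74 in dICM, and 9.72, 8.49 and 11.9 in ICM (1.73 ± 0.38, adjusted p = 0.010). For both genes Epi replicate 1 was well above Epi replicate 2, and without it the adjusted p was 0.099 for Atp5g2 and 0.10 for Atp5g3. Atp5g1 did not share this pattern: it had 6.07 and 8.12 in Epi, 8.14, 7.14 and 10.2 in dICM, and 17.5, 8.17 and 17.2 in ICM. Its estimate in Epi was -0.86 ± 0.34 (adjusted p = 0.087), and it passed without ICM replicate 2 (-1.19, adjusted p = 0.015) and after rescaling (0.044 and 0.035). In dICM the estimate was -0.63 ± 0.31 (adjusted p = 0.22, and 0.038 without ICM replicate 2). Atp5g1 held 1.83% and 4.34% of the family in Epi, 14.02% to 19.5% in dICM and 13.7% to 20.3% in ICM.

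Atp5h, the d subunit of the peripheral stalk, averaged 155 ± 71.5 in Epi and 58.7 ± 18.1 in ICM (1.35 ± 0.39, adjusted p = 0.032). Atp5k and Atp5l encode subunits e and g, which hold ATP synthase dimers together. Atp5k averaged 91.4 ± 24.8 in Epi and 29.7 ± 18.2 in ICM (1.77 ± 0.53, adjusted p = 0.033), and Atp5l averaged 76.4 ± 0.204 in Epi and 40.9 ± 15.2 in ICM (0.95 ± 0.31, adjusted p = 0.049). Without Epi replicate 1 the estimates of these 3 were 0.86, 1.49 and 0.95, and the calls were lost. Atp5h was also lost without ICM replicate 1 (adjusted p = 0.088) or 2 (0.068), with no filter (0.11) and with equal sums (0.079). Atp5k was also lost without Epi replicate 2 (estimate 2.05) or ICM replicate 1 (adjusted p = 0.059). It was lost as well with no filter (0.14) and with only the 2 groups compared (0.061). Atp5l was lost in 7 of 8 fits without 1 library. The catalytic head did not share the rise: Atp5a1 averaged 293 ± 29.1 in Epi and 490 ± 36.5 in ICM (-0.74 ± 0.25, adjusted p = 0.0502, and 0.0084 to 0.023 under the 3 rescalings), and Atp5b averaged 906 ± 17.7 in Epi and 1429 ± 272 in ICM, both with all Epi libraries below all ICM libraries. The sum of complex V was 2285 and 1982 in Epi and 2283 to 2699 in ICM.

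The windows at the starts of the c-ring genes and of Cox6a1 are shown because these genes moved apart in Epi, and because of a motif that nuclear respiratory genes are known to carry. NRF1, a transcription factor of respiratory genes, binds a GC-rich palindrome, searched as GCGCA, any 1 base and then GCGC on both strands. Capitals mark these letters. The windows are chr11:96075582-96075881 on the minus strand for Atp5g1, chr15:102670998-102671297 on the minus strand for Atp5g2, chr2:73911277-73911576 on the minus strand for Atp5g3 and chr5:115348909-115349208 on the minus strand for Cox6a1.
Atp5g1: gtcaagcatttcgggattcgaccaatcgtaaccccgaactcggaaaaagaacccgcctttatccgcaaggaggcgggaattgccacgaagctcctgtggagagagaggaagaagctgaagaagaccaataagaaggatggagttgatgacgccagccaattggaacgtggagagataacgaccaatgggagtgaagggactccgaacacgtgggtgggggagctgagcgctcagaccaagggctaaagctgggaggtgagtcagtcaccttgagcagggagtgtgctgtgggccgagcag
Atp5g2: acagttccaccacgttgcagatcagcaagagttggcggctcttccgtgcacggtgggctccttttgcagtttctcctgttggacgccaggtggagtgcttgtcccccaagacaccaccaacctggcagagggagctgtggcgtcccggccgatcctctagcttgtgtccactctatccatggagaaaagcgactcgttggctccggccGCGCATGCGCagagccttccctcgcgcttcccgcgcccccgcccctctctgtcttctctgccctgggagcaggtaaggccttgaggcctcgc
Atp5g3: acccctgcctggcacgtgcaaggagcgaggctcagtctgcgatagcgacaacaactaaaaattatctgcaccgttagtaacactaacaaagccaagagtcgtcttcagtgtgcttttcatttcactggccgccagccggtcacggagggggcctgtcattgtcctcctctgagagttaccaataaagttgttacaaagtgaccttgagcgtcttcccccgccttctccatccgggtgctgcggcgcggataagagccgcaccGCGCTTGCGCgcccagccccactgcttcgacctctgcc
Cox6a1: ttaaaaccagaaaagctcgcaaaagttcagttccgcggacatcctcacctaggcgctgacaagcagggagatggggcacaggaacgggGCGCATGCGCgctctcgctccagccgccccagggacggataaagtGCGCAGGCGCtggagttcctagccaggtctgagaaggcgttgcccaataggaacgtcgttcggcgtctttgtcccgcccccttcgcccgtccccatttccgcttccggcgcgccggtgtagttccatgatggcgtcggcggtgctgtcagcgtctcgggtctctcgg

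The Atp5g2 and Atp5g3 windows hold 1 match each, the Cox6a1 window holds 2, and the Atp5g1 window holds none. Over the members, 67 of 83 had a window, with 73 windows in all, and 16 windows (21.9%) of 15 genes held the letters, beside 4.6% of all 32851 windows in the table and 10.4% of the 10363 windows of tested genes. By complex the count was 8 of 33 windows for complex I, 1 of 5 for complex III, 1 of 14 for complex IV and 6 of 20 for complex V. The letters occurred both in genes that were higher in Epi (Atp5g2, Atp5g3, Atp5h, Atp5k) and in genes that were lower (Cox6a1, Ndufa8, Ndufb4, Ndufs5). The ETS core CCGGAAG, searched on both strands for the GABP factor family, was in 14 of 73 windows (19.2%), beside 18.3% of the windows of tested genes. These matches describe letters in a window and not binding.

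Set directly against Epi, 6 complex IV genes were higher in dICM, and the c-ring genes Atp5g2 and Atp5g3 and the carrier Cycs were lower. Of 77 members 16 were higher in dICM and 14 lower (39.0%), beside 34.5% of all genes, 16% higher and 18.6% lower. The median was -0.01, beside -0.11 over all genes. Libraries did not overlap for 24 members that were higher and 28 that were lower, beside 61.4% of all genes, 27.3% higher and 34.1% lower. Complex I had 8 higher and 2 lower (median 0.11), complex III 1 and 3 (-0.53), complex IV 6 and 2 (0.62) and complex V 1 and 6 (-0.03). The ICM libraries enter this contrast only through the shared estimate of spread. Without Epi replicate 1, 8 were higher and 3 lower, and without Epi replicate 2, 9 were higher and 10 lower.

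Cox6a1 had 221, 272 and 260 in dICM against 69.6 and 50.0 in Epi (2.07 ± 0.26, adjusted p = 0.00060). Cox4i1 had 617, 676 and 507 in dICM against 189 and 169 in Epi (1.73 ± 0.25, adjusted p = 0.0012), and Cox6b1 had 441, 446 and 400 in dICM against 129 and 160 in Epi (1.57 ± 0.22, adjusted p = 0.0011). Against ICM none of these genes was called in dICM, with log2 estimates of -0.57 ± 0.23 for Cox6a1, -0.17 ± 0.23 for Cox4i1 and -0.06 ± 0.20 for Cox6b1, although Cox6a1 passed after rescaling (adjusted p = 0.045 and 0.046). Cox6b2 was also higher in dICM than in Epi (2.07 ± 0.29, adjusted p = 0.0011), as was Cox7a2l (1.15 ± 0.24, adjusted p = 0.0065, lost without Epi replicate 1 at 0.059). Cox7c had 1114, 923 and 641 in dICM against 463 and 538 in Epi (0.80 ± 0.26, adjusted p = 0.043), which did not pass in 6 of the 8 fits that left out a library. The 2 complex IV genes that were lower in dICM than in Epi were Cox8a (-1.11 ± 0.27, adjusted p = 0.014, and 0.11 without Epi replicate 1) and Cox5a (-1.39 ± 0.32, adjusted p = 0.011, and 0.083 without Epi replicate 1). Cox7a1, low in both, was not called between them (-0.41 ± 0.30, adjusted p = 0.32).

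In complex I, Ndufa3 (1.44 ± 0.23, adjusted p = 0.0019) and Ndufv1 (1.32 ± 0.23, adjusted p = 0.0029) were higher in dICM than in Epi in each fit without 1 library. The other complex I genes called higher were Ndufa1, Ndufa8, Ndufa13, Ndufb2, Ndufb4 and Ndufb5. All of these but Ndufa1 lost the call with no filter on low values, and each lost it in at least 1 fit without 1 library. The 2 complex I genes that were lower in dICM than in Epi were core subunits, Ndufs3 (-1.14 ± 0.26, adjusted p = 0.010, lost without Epi replicate 1 at 0.092) and Ndufv2 (-0.94 ± 0.31, adjusted p = 0.044, lost in 7 of 8 such fits). In complex III, Uqcrfs1 (-1.25 ± 0.26, adjusted p = 0.0070), Uqcrb (-1.61 ± 0.37, adjusted p = 0.011) and Uqcrc2, a scaffold subunit of the matrix side (-0.83 ± 0.26, adjusted p = 0.035), were lower in dICM and Uqcr11 was higher (1.21 ± 0.28, adjusted p = 0.012). Without Epi replicate 1 the estimates of the first 3 were -1.25, -1.54 and -0.89. Without Epi replicate 2 the estimates were -1.69 for Uqcrb, -0.77 for Uqcrc2 and 1.03 for Uqcr11. Each of these fits lost the call of the gene given. Uqcrc2 was also lost without ICM replicate 1 (adjusted p = 0.054), dICM replicate 1 (0.065) or dICM replicate 3 (0.087). It was lost under quantile normalization (0.056) and with the replicate number as a term (0.079). Cycs had 41.0, 41.0 and 39.8 in dICM against 139 and 94.0 in Epi (-1.47 ± 0.25, adjusted p = 0.0027). In complex V, Atp5g3 (-2.51 ± 0.38, adjusted p = 0.0015) and Atp5g2 (-2.41 ± 0.38, adjusted p = 0.0018) were lower in dICM, with adjusted p of 0.022 each without Epi replicate 1. Atp5f1, Atp5h, Atp5k and Atp5l were lower as well, but without Epi replicate 1 these calls were lost (adjusted p = 0.085, 0.098, 0.12 and 0.057). Atp5k and Atp5l were also lost without Epi replicate 2 (0.053 and 0.051), and Atp5k with no filter on low values (0.088). Atp5a1 was higher (1.23 ± 0.25, adjusted p = 0.0061, and 0.056 without Epi replicate 1).

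Both comparisons with ICM use the same ICM libraries, so their values are given side by side and no overlap is tested. Ndufs8, Ndufs5, Uqcr10 and Cox7a1 were called lower in both dICM and Epi, and no member was called higher in both. Their log2 fold changes were -1.56 in dICM and -1.35 in Epi for Ndufs8, -1.23 and -0.89 for Ndufs5, -1.36 and -1.75 for Uqcr10, and -2.09 and -1.68 for Cox7a1, each with dICM first. The Ndufs5 call in Epi was lost without Epi replicate 1 (0.18), Epi replicate 2 (0.077), ICM replicate 1 (0.071) or ICM replicate 3 (0.071).

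The other genes of the pathway are given by list, beside the 13.3% of all genes called in dICM against ICM. In dICM against ICM, 0 of 4 complex II genes were called, and Sdha, its flavoprotein, averaged 108 ± 6.65 in dICM and 104 ± 38.1 in ICM. Of 13 mitochondrially encoded subunits mt-Nd1 fell (383 ± 81.1 in dICM, 844 ± 196 in ICM, adjusted p = 0.019) and none rose, with a list median of -0.47. Of 6 tested genes that feed electrons in elsewhere, 2 fell and none rose. Etfb, a subunit of the electron transfer flavoprotein of fatty acid oxidation, averaged 68.1 ± 4.35 in dICM and 232 ± 37.7 in ICM (-1.75 ± 0.21, adjusted p = 0.0011). Gpd2, the glycerol-3-phosphate dehydrogenase of mitochondria, averaged 14.7 ± 4.13 in dICM and 48.6 ± 16.4 in ICM (-1.64 ± 0.31, adjusted p = 0.0097). Of the assembly factors, Acad9 for complex I (1 of 13), Tmem70 for complex V (1 of 5) and Taco1, which activates translation of mt-Co1, fell, and Pet117, a complex IV factor, rose (1 higher and 1 lower of 18), while 0 of 5 for complex III were called. Of 14 tested regulators, Ppargc1b, a coactivator of mitochondrial genes, rose (4.21 ± 1.84 in dICM, 1.08 ± 0.73 in ICM, adjusted p = 0.030) and Slirp, which stabilises mitochondrial messenger RNA, fell (19.1 ± 8.05 in dICM, 39.7 ± 1.41 in ICM, adjusted p = 0.040). Etfb, Gpd2 and Tmem70 passed in each fit without 1 library, while mt-Nd1, Acad9, Taco1, Pet117, Ppargc1b and Slirp each lost the call in at least 3 such fits, with adjusted p of up to 0.11 for Slirp.

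In Epi against ICM, where 30.1% of all genes were called, 0 of 13 mitochondrially encoded genes rose and 5 fell: mt-Co1 and mt-Co3 of complex IV, mt-Nd1 and mt-Nd4l of complex I, and mt-Cytb of complex III, with a list median of -1.02. The level of mt-Co1 averaged 1846 ± 61.8 in Epi and 6846 ± 987 in ICM (-1.88 ± 0.30, adjusted p = 0.0022). Cox17, the copper chaperone of complex IV, fell with them (53.4 ± 10.9 in Epi, 225 ± 36.0 in ICM, adjusted p = 0.00087), as did Cox16 and Taco1, whereas Cox20 rose (17.6 ± 10.1 in Epi, 3.71 ± 3.57 in ICM, adjusted p = 0.023). Beside the complex V subunits, Atpif1, the inhibitor of ATP synthase, averaged 332 ± 208 in Epi and 79.6 ± 37.9 in ICM (2.02 ± 0.50, adjusted p = 0.017), and Usmg5, a small protein of the synthase, averaged 80.2 ± 14.2 in Epi and 35.7 ± 3.05 in ICM (adjusted p = 0.019). Of the regulators, Tfam, which packages and transcribes mitochondrial DNA, rose (22.0 ± 2.77 in Epi, 8.48 ± 0.781 in ICM, adjusted p = 0.0029). Esrrb, an orphan nuclear receptor of naive pluripotency, averaged 2.23 ± 0.00327 in Epi and 30.2 ± 9.26 in ICM, and fell along with Pprc1, Gabpa and Tfb2m. Etfa, Etfb and Gpd2 fell among the 6 electron-entry genes, and none rose. Of the calls named here, those of mt-Co1, mt-Cytb, Cox17, Taco1, Tfam, Esrrb, Etfa and Etfb passed in each fit without 1 library, and the rest were lost without Epi replicate 1, at adjusted p of 0.074 for Pprc1 to 0.24 for Gabpa. In dICM against Epi, 34.5% of all genes were called, 16% higher and 18.6% lower. There 4 of 13 mitochondrially encoded genes were higher and 0 lower, among them mt-Co1 (1.71 ± 0.30, adjusted p = 0.0030). Within complex II, Sdhc was higher and Sdhd lower. Without Epi replicate 1 the adjusted p was 0.10 for Sdhc and 0.16 for Sdhd, and of the 4 mitochondrial genes only mt-Co1 passed.

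A few members need care as names. Atp5l2 averaged 53.3 ± 7.91 in dICM, 49.3 ± 3.8 in Epi and 77.8 ± 19.2 in ICM, but the current mouse annotation lists it as a pseudogene. Atp5s and Atp5sl, which current annotation calls Dmac2l and Dmac2, are not subunits under those names and stayed at low levels, with means of 1.07 and 1.59 in dICM, 0.143 and 1.68 in Epi, and 0.749 and 1.33 in ICM. Another annotated gene overlaps 26 of the 83 members. Many Cox and Atp5 genes have processed copies elsewhere in the genome, and the sources used here do not say how reads shared with such copies were counted.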

How the data were processed

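RNA from pooled embryos was sequenced, and the authors deposited one matrix of signal per gene that their column names call adjusted TPM. The sources used here do not say how it was adjusted. The columns sum to between 720674 and 1179026, so they are not TPM proper, and they hold no counts, so depth per library is unknown and no counting interval is given. The submitters' processing notes name Bowtie 0.12.5, DESeq and the mouse build mm9, with no role for each.

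Genes at 1 or more in at least 2 libraries (17698) were tested with limma 3.58.1 in R 4.3.3 on log2(value + 1). All 8 libraries entered one fit with a mean per group (residual df 5, prior df 3.97 with a mean trend). Tests were two-sided, with Benjamini-Hochberg adjustment over all tested genes and a threshold of 0.05. Fold changes on this scale understate changes of low genes. The method was tested on simulated data. Named genes are those past the threshold in dICM against ICM, the 8 with the smallest adjusted p in each other comparison, isoform families, core subunits and the extremes of each complex, and further names were chosen after their values were seen. Members and lists were chosen with earlier results of these data known. The values of 1 member are not reported here. Alternatives were another pseudocount, no filter, quantile normalization, rescaling without 43 genes that hold 0.5% or more of a library, the replicate number as a block, only the 2 groups compared and leaving out each library in turn. Rescaling to equal column sums was added after seeing the data.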

Additional observations from a re-analysis of the deposited data

How the results depend on the processing

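The 2 members higher in dICM than in ICM, Cox6b2 and Cox7a2l, and 4 of those lower, Ndufs8, Ndufs5, Uqcr10 and Cox7a1, passed the threshold with the same direction under every alternative run. The number lower in dICM was 6 with values as deposited, 12 after rescaling without abundant genes and 14 after rescaling to equal column sums, and 4 to 7 with 1 library left out, with 2 higher throughout. The number higher in Epi than in ICM was 6, but 3 with no filter on low values, 3 with only the 2 groups compared, 3 with equal column sums, and 0 to 8 with 1 library left out. The number lower in Epi ran between 8 and 17 with 1 library left out. In dICM against Epi, 16 were higher, 10 with no filter, and 8 to 16 higher and 3 to 14 lower with 1 library left out.

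Rescaling without abundant genes moved the median of all genes in dICM against ICM to -0.13 and equal sums moved it to -0.20, with the members' median at -0.47 and -0.57, so members lay below all genes under each scaling. In Epi against ICM the median of all genes was 0.01 and -0.07 under these scalings, with members at -0.35 and -0.46. Equal sums turned the estimate of Cox8a in Epi against ICM to -0.10 (adjusted p = 0.85), and the cause was not tested.

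The labels give groups the same replicate numbers. Deviations of same-numbered libraries correlated at 0.0175, 0.103 and 0.131 between ICM and dICM, beside -0.148 to 0.033 for differently numbered ones. These values cannot settle whether the numbers pair the samples, and the main fit did not use the numbers. With the replicate number as a block, 2 were higher and 6 lower in dICM against ICM, 6 and 16 in Epi against ICM, and 14 and 13 in dICM against Epi. With 2 Epi libraries and no counts, small differences in low genes such as Ndufa11 or Atp5s could not be resolved.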
